A study of Mus musculus with 12 samples.

Results

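Hox genes, the transcription factors that record position along the head-to-tail axis, were examined in the side population of 2 mouse muscles, extraocular muscle (EOM) and the tibialis anterior of the leg (TA). The members were all probe sets of the array whose only gene symbol was that of a gene of the Hoxa, Hoxb, Hoxc or Hoxd cluster, with no filter on level. They were 48 of 45037 probe sets and stood for 33 of 18193 named genes. Of 39 Hox genes in the RefSeq gene list, 6 had no probe set of their own, and 3 probe sets shared by several Hox genes were left out. Side population cells are the small part of a dissociated tissue that exports the dye Hoechst. The groups were 6 EOM and 6 TA side population preparations, separated independently and hybridized to 1 Affymetrix array each. No genotype, strain, sex, age or treatment was given in the sources used here for either group, and arrays are named by muscle and by the number in the sample title (EOM 0 to TA 6). Each value is a MAS5 signal, the brightness that summarizes the probes of a probe set, on a linear scale. The number of arrays, not a read depth, limits its precision.

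Mammalian Hox genes lie in 4 clusters on different chromosomes, and each codes for a DNA-binding protein with a homeodomain. Genes at the same place in different clusters are paralogues and carry the same number, from 1 at the anterior end to 13 at the posterior end. In the embryo, low-numbered genes are expressed up to the hindbrain, middle ones in neck and trunk, and high-numbered ones in the lumbar and tail regions and, for clusters a and d, along the limb. The front of the head, where the extraocular muscles and their connective tissue form, lies beyond the domain of Hox expression, whereas limb muscle and its connective tissue come from the trunk. Adult stromal and vascular cells often keep part of the Hox pattern of their place of origin.

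Some arrays stood apart. The median signal of all probe sets was 31.1 to 43.4 on 9 arrays while EOM 1 had 87.2, TA 3 had 69.5 and TA 5 had 63.1. The ratio of the 3′ to the 5′ actin probe set, which rises as RNA is shortened, reached 104 (EOM 1), 165 (TA 3), 100.2 (TA 5) and 68.6 (TA 2), and was 5.27 to 28.5 on the other 8 arrays. A fit with this ratio as a covariate had 6 Hox genes lower. The fit without EOM 1, TA 3 and TA 5, the arrays with the highest ratios, had 15 lower, against 7.44% of all genes. The part of the ratio in the Hox differences was not otherwise tested. EOM 1 was the highest EOM array for 20 of the 33 Hox genes (60.6%) and for 47.5% of all genes. TA 3 or TA 5 was the highest TA array for 25 Hox genes (75.8%) and for 56.2% of all genes. Results are therefore given with all 12 arrays, without EOM 1, and without EOM 1, TA 3 and TA 5. Leaving out EOM 1 moved the median log2 fold change of all probe sets from -0.03 to -0.14, and leaving out all of these arrays put it at -0.01.

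Several Hox genes were lower in EOM, and none was higher. With all 12 arrays 5 of 33 Hox genes were lower in EOM at an adjusted p under 0.05 and 0 were higher, while 4.26% of all genes were lower and 2.39% were higher (limma on log2(signal + 16), two-sided, Benjamini-Hochberg adjustment over all 45037 probe sets). Those lower were Hoxa9, Hoxb4, Hoxb5, Hoxc4 and Hoxd8. Without EOM 1 the count was 16 lower and 0 higher, against 6.64% and 6.27% of all genes, and it included these 5. Without EOM 1, TA 3 and TA 5 it was 15 lower and 0 higher, against 7.44% and 6.83%, and all 15 were among the 16. The median log2 fold change (EOM minus TA) of the 33 genes was -1.01 with all arrays and -1.14 without EOM 1, beside -0.03 and -0.11 for all genes. In 26 of 33 genes the estimate was negative, against 53.0% of all genes. Signals of bulk RNA cannot tell fewer cells of a type from less RNA per cell.

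**Figure D1:**
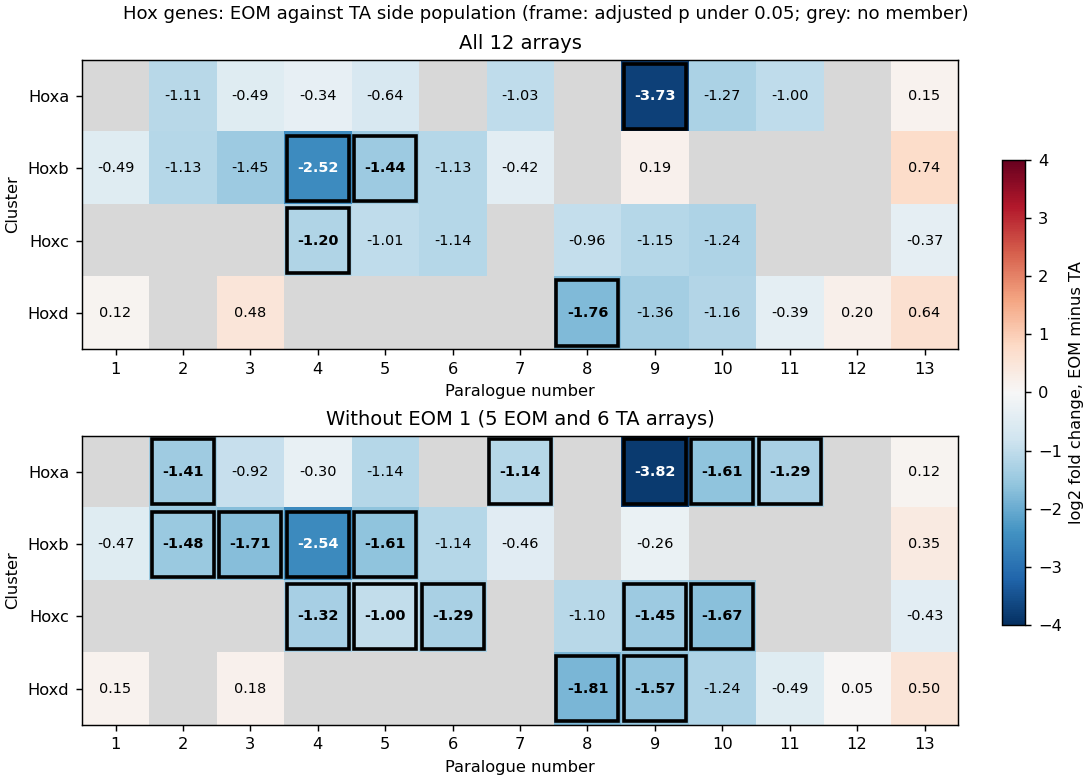
Log2 fold change of the 33 Hox genes (EOM minus TA, on the log2(signal + 16) scale), laid out by cluster (rows) and paralogue number (columns), with all 12 arrays above and without EOM 1 below. Framed values passed an adjusted p under 0.05: 5 genes above and 16 below, all between paralogues 2 and 11, while grey positions have no member.

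Hoxa9, a posterior gene of trunk and limb that is also known from blood progenitors and endothelium, had the largest difference. Its signal was 1.4 at the lowest, 3.50 at the median and 15.7 at the highest in EOM, and 200.8, 240.8 and 432.6 in TA. Every EOM array was thus below every TA array, and the gene lay above the array's own median signal on 6 of 6 TA arrays and 0 of 6 EOM arrays. The difference was -3.73 ± 0.33 (log2 fold change ± SE, adjusted p = 4.25e-07), and the gene passed in all 25 alternatives. The smallest change among them, -1.83 (adjusted p = 0.000313), came from averaging both probe sets of the gene, the second of which did not differ in the same way. EOM signals this low make the size depend on the added constant: the log2 fold change was -5.63 with 1 and -2.28 with 64 added in place of 16, and for Hoxb4, described next, -3.52 and -1.55.

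Hoxb4, a gene of the neck region known for expanding blood stem cells, came next. Its EOM signals had a minimum of 1.2, a median of 22.95 and a maximum of 32.5, and its TA signals were 101.8, 162.1 and 317.5. The groups did not overlap, with TA 3 (317.5) and TA 5 (298.7) the highest. Its difference was -2.52 ± 0.38 on the log2 scale (adjusted p = 0.000222), or -2.16 (adjusted p = 0.000460) without EOM 1, TA 3 and TA 5. Hoxd8, a trunk gene, passed with both of its probe sets. On the one with the higher mean, EOM arrays read 46.8, 59.4 and 79.2 (lowest, median, highest) and TA arrays 139.9, 264.2 and 368.1. Here the log2 fold change was -1.76 ± 0.29 (adjusted p = 0.000510). The second probe set gave -1.79 ± 0.32 (adjusted p = 0.00122). In EOM this gene was still above the array's median signal on 5 of 6 arrays.

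The other pair of genes passed by less. Hoxb5, a neighbour of Hoxb4 known from vascular and enteric nerve development, had EOM signals of 1.9, 4.10 and 23.6 (lowest, median, highest) and TA signals of 11.3, 47.45 and 98.4. Only EOM 1, at 23.6, exceeded any TA array, and the TA array it exceeded was TA 2, at 11.3. Its log2 fold change was -1.44 ± 0.37 (adjusted p = 0.0275). Hoxc4, the most anterior gene of its cluster, read 1.5, 2.90 and 14.6 in EOM and 12.4, 34.95 and 50.3 in TA. Again EOM 1, at 14.6, was the single array to reach the range of TA, above TA 5 alone. The log2 fold change was -1.20 ± 0.31 (adjusted p = 0.0279). Each of these genes passed in 4 of the 12 fits that left out 1 array. Both were among the low-signal genes that a filter on the lowest 40% of means would leave out. Hoxb5 was lost without EOM 0, 2, 3, 5 or 6 or TA 0, 5 or 6 (adjusted p up to 0.0838), and Hoxc4 without EOM 0, 2, 3, 5 or 6 or TA 1, 2 or 6 (adjusted p up to 0.0856). With 1 such array left out, the Hox count therefore fell to 3 without EOM 0, EOM 2, EOM 3 or EOM 6.

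**Figure D2:**
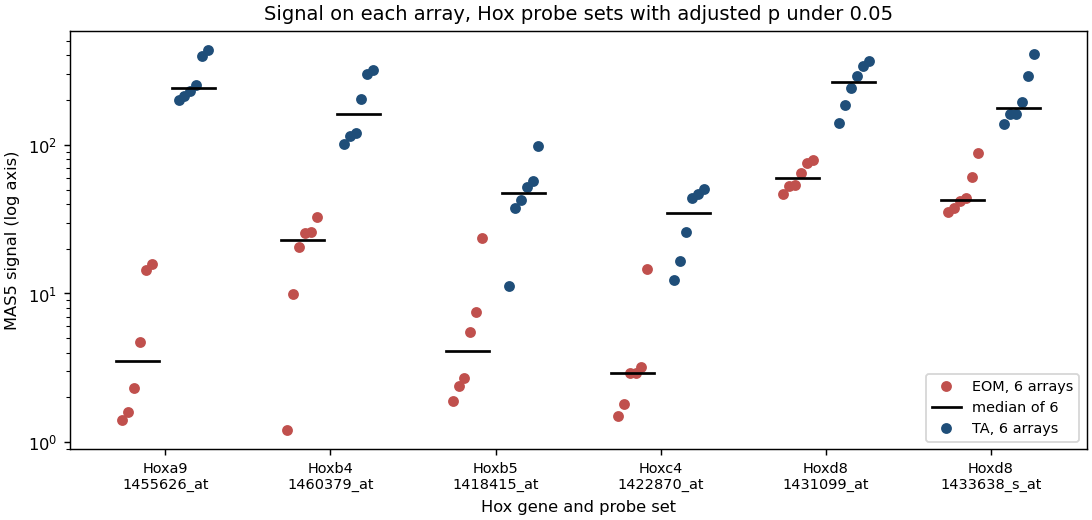
MAS5 signal (log axis) on each of the 6 EOM and 6 TA arrays for the 6 Hox probe sets with an adjusted p under 0.05, with a black line at each group's median. EOM and TA points do not overlap for Hoxa9, Hoxb4 and Hoxd8, while 1 EOM array (EOM 1) reaches the TA range for Hoxb5 and for Hoxc4.

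Promoter sequence was in the RefSeq table used here (GRCm38.p6) for 19 of the 33 Hox genes and for 4 of the 5 that passed, and these 4 are shown because their genes were lower together in EOM. Each window runs 5′ to 3′ on the strand of the gene, from 250 bases before the annotated start to 50 bases after it, in lower case. Capitals mark matches, on either strand, to any of 5 motifs: CCAAT (the CCAAT box), CACGTG (an E-box), TTTATG (a Cdx-type site), AGGTCA (a nuclear receptor half-site) and TGATNNAT (a Pbx-Hox type site). Hoxa9 is at chr6:52227321-52227620 (minus strand), Hoxb4 at chr11:96318017-96318316 (plus strand), Hoxc4 at chr15:103034145-103034444 (plus strand) and Hoxd8 at chr2:74704365-74704664 (plus strand).
Hoxa9: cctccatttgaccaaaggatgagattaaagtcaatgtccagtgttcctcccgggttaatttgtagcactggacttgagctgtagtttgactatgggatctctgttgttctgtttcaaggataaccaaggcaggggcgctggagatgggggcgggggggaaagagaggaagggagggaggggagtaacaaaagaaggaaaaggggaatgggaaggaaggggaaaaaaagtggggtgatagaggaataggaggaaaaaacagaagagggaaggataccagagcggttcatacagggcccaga
Hoxb4: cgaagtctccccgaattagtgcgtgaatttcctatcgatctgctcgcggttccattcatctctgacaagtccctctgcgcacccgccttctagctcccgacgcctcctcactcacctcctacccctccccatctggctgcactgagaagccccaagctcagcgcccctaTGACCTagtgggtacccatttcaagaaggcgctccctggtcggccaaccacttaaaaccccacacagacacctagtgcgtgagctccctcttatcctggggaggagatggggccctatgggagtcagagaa
Hoxc4: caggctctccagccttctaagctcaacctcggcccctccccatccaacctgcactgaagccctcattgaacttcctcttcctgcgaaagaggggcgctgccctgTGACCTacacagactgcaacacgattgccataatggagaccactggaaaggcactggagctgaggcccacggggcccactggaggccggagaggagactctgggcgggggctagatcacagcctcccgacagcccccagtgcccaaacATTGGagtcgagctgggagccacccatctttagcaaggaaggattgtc
Hoxd8: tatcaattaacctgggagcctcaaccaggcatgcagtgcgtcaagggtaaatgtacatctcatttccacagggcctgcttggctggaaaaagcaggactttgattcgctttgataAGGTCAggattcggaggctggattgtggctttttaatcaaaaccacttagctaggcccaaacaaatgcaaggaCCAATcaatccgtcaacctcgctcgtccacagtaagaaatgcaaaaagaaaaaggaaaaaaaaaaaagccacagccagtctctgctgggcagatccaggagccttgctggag

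The Hoxa9 window held none of the 5 motifs. AGGTCA was found once in each of the other windows, at positions -81 in Hoxb4 and -146 in Hoxc4 on the opposite strand and at -135 in Hoxd8 on the same strand (leftmost base, counted from the start site). CCAAT was found once in Hoxd8, at -62, and once in Hoxc4, at 3 on the opposite strand, and no matches overlapped. Over 27025 genes with a window of this length, 16% held AGGTCA and 37.9% held CCAAT, against 6 and 11 of the 19 Hox windows. CACGTG was in 7.24% of all windows and 3 Hox windows, TTTATG in 12.1% and 3, and TGATNNAT in 9.04% and 2. A match describes the letters of the window only.

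Cluster a had members at paralogues 2 to 5, 7, 9 to 11 and 13. Besides Hoxa9, 4 of its 9 genes passed without EOM 1, and none of these did with all arrays. Hoxa2, a hindbrain and pharyngeal arch gene, read 0.6 to 4.4 on 5 EOM arrays and 48.1 on EOM 1, against 12.8, 33.9 and 67.3 in TA (lowest, median, highest). Without EOM 1 its groups did not overlap, and its log2 fold change was -1.41 ± 0.30 (adjusted p = 0.00393), beside -1.11 (adjusted p = 0.125) with all arrays. Hoxa7, a trunk gene, had a highest EOM signal of 16.9, on EOM 1, and TA signals of 6.0, 32.4 and 74.8. Even without EOM 1 it overlapped through TA 3, at 6.0, and it gave -1.14 (adjusted p = 0.0407) without EOM 1.

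The limb-level genes Hoxa10 and Hoxa11 had a similar pattern. Hoxa10 read 3.5 to 19.4 on 5 EOM arrays, 86.7 on EOM 1, and 25.5, 51.6 and 130.6 in TA. Hoxa11, a gene of the middle limb segment, read 11.7 to 46.5 on 5 EOM arrays, 124.2 on EOM 1, and 67.4, 77.75 and 148.2 in TA. For both, on the representative probe set, EOM 1 alone overlapped the TA arrays. Without it their log2 fold changes were -1.61 ± 0.39 (adjusted p = 0.0102) and -1.29 ± 0.33 (adjusted p = 0.0133), against adjusted p = 0.156 and 0.198 with all arrays. The second Hoxa10 probe set overlapped even without EOM 1 and did not pass there (-0.82, adjusted p = 0.263). Averaging the Hoxa10 probe sets over all 12 arrays gave -0.82 (adjusted p = 0.393).

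Hoxa5, a gene of the neck and lung, did not pass in any of these 3 sets of arrays. It had the highest EOM signal of any member, 508.6 on EOM 1, with 10.7 to 142.3 on the other EOM arrays and 59.5, 150.0 and 236.8 in TA. Its adjusted p was 0.716 with all arrays and 0.0887 without EOM 1. Its second probe set read 1.8 to 15.5 on 5 EOM arrays, 190.7 on EOM 1 and 22.1 to 153.0 in TA, and gave -2.15 (adjusted p = 0.000648) without EOM 1. Hoxa3 and Hoxa4 did not pass in those 3 sets either, and Hoxa13, a digit gene, had medians of 21.95 in EOM and 22.6 in TA.

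Cluster b was measured at paralogues 1 to 7, 9 and 13. Hoxb2 and Hoxb3, hindbrain genes that flank Hoxb4 on its anterior side, were lower in EOM without EOM 1. Hoxb3 read 2.4 to 33.2 on 5 EOM arrays, 82.3 on EOM 1, and 39.6, 112.05 and 173.1 in TA. Its log2 fold change was -1.71 ± 0.39 (adjusted p = 0.00651) without EOM 1 and -1.45 ± 0.43 (adjusted p = 0.0677) with it. Hoxb2 read 2.8 to 17.1 on 5 EOM arrays, 96.8 on EOM 1, and 26.8, 57.7 and 113.9 in TA, and gave -1.48 ± 0.36 (adjusted p = 0.0110) without EOM 1. The 4 adjoining genes Hoxb2, Hoxb3, Hoxb4 and Hoxb5 thus passed without EOM 1 by their representative probe sets, with no overlap between the remaining arrays. The second probe sets of Hoxb3 (-0.85, adjusted p = 0.288) and Hoxb4 (-0.76, adjusted p = 0.292) overlapped and did not pass there, and averaging the Hoxb3 probe sets over all 12 arrays gave -0.96 (adjusted p = 0.188). Without EOM 1, 13 of the 33 Hox genes had every EOM array below every TA array and 0 the reverse, against 5.73% and 5.43% of all genes. Among probe sets the counts were 16 and 0 of 48, against 3.80% and 3.58%.

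On either side of that run nothing passed in any fit. Hoxb1, a hindbrain gene, read 10 to 39.6 in EOM and 1.3 to 95.0 in TA, with a log2 fold change of -0.49 ± 0.45 (adjusted p = 0.758). Hoxb6 was above every EOM array on 5 of 6 TA arrays (-1.13 ± 0.43, adjusted p = 0.20), TA 2 being low at 10.7. Hoxb7 and Hoxb9 were at -0.42 and 0.19. Hoxb13, a tail and prostate gene, was the member with the largest positive estimate (0.74 ± 0.35, adjusted p = 0.375). Its TA signals lay between 1.0 and 4.2, and its EOM signals were 3.3 to 19.4 on 5 arrays and 99.1 on EOM 1. Without EOM 1 the estimate was 0.35.

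Cluster c, measured at paralogues 4 to 6, 8 to 10 and 13, had negative estimates for all 7 genes, and 5 passed without EOM 1. By its representative probe set, Hoxc5 was among the 4 Hox genes whose groups did not overlap with all 12 arrays, with Hoxa9, Hoxb4 and Hoxd8. Of all genes, 3.52% had every EOM array below every TA array and 1.69% the reverse. Among probe sets this held for 5 Hox probe sets, against 2.20% of all, and for 0 in reverse, against 1.18%. Hoxc5 read 0.9, 5.4 and 10 in EOM and 11.5, 29.5 and 48.1 in TA, low signals in both, and missed the threshold (-1.01 ± 0.30, adjusted p = 0.0638). Without EOM 1 it was at 0.0496. The other Hoxc5 probe sets overlapped and did not pass (-0.80, adjusted p = 0.403, and -0.58, adjusted p = 0.542). Without EOM 1 they overlapped too (adjusted p = 0.221 and 0.288). Hoxc6, a gene of the thorax, read 23.8 to 45.8 on 5 EOM arrays, 80.0 on EOM 1, and 69.5, 92.35 and 179.3 in TA. Its log2 fold change was -1.14 ± 0.34 (adjusted p = 0.0675) with all arrays and -1.29 ± 0.32 (adjusted p = 0.0107) without EOM 1. Of its other probe sets, 1 passed without EOM 1 (-1.39, adjusted p = 0.0299) and 1 did not (-0.28, adjusted p = 0.770). Averaging the Hoxc6 probe sets over all 12 arrays gave -0.71 (adjusted p = 0.312).

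The posterior genes of cluster c showed more overlap. Hoxc10, a lumbar and hindlimb gene, read 2.5 to 26.6 on 5 EOM arrays and 127.1 on EOM 1, above all TA arrays, which read 23.1, 67.55 and 113.5. It gave -1.24 ± 0.49 (adjusted p = 0.214) with all arrays and -1.67 ± 0.38 (adjusted p = 0.00671) without EOM 1. Hoxc9 passed without EOM 1 (-1.45, adjusted p = 0.0283) and no longer when TA 3 and TA 5 were left out too (adjusted p = 0.0942). Its signals were 2.8 to 46.7 on 5 EOM arrays, 103.9 on EOM 1, and 40.2, 82.4 and 161.2 in TA. Hoxc8 was at -0.96 ± 0.37 (adjusted p = 0.210) and -1.10 (adjusted p = 0.0668) without EOM 1, where its groups did not overlap. Hoxc13, known from hair and nail, had medians of 3.75 and 8.10 and did not pass.

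Cluster d was the most mixed, with 4 negative and 4 positive estimates at paralogues 1, 3 and 8 to 13. Hoxd8 and its neighbour Hoxd9 were the genes that passed without EOM 1. Hoxd9, a gene of trunk and proximal limb, read 3.8, 5.90 and 48.2 in EOM and 22.7, 73.5 and 88.3 in TA. EOM 1 (46.4) and EOM 5 (48.2) were the EOM arrays that reached the TA range, above TA 5 alone. It gave -1.36 ± 0.42 (adjusted p = 0.0796) with all arrays and -1.57 ± 0.40 (adjusted p = 0.0134) without EOM 1. Hoxd10 varied widely within TA, from 2.4 on TA 6 and 8.8 on TA 0 to 57.3 or more on the other TA arrays, and did not pass (-1.16 ± 0.45, adjusted p = 0.205).

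The ends of cluster d had low signals in both muscles. Hoxd1 read 2.1 to 28.9 in EOM and 0.6 to 35.0 in TA, and Hoxd3 2.5 to 85.1 and 0.8 to 25.8. Hoxd11 and Hoxd12 had medians of 8.4 and 5.05 in EOM and 15.1 and 2.00 in TA. Hoxd13, a digit gene, read 18.9, 24.9 and 53.0 in EOM and 1.4, 7.75 and 42.2 in TA. Its estimate of 0.64 ± 0.37 did not pass (adjusted p = 0.525), with TA 2 (33.5) and TA 5 (42.2) inside the EOM range. None of these 5 genes was above its array's median signal on any array, and at such signals a small difference could not be detected.

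**Figure D3:**
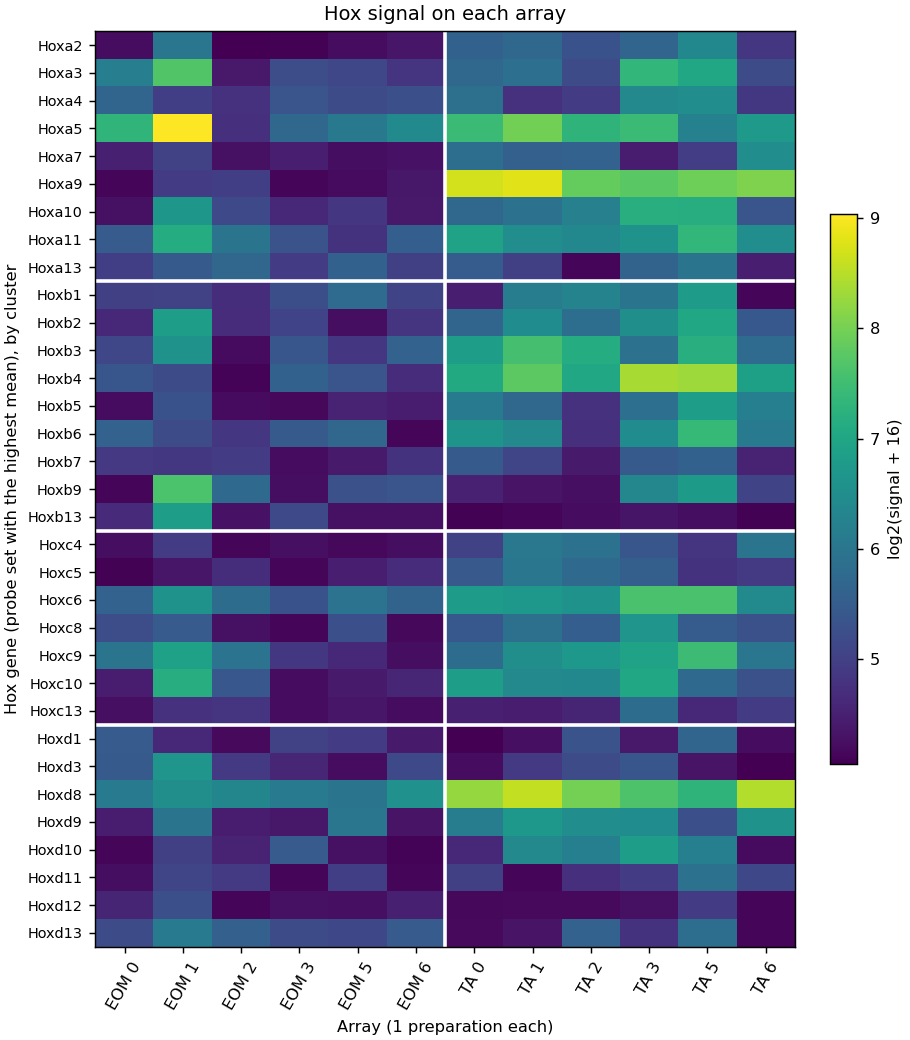
Log2(signal + 16) of the 33 Hox genes (rows, by cluster and paralogue number, with 1 representative probe set a gene) on the 12 arrays (columns, EOM left of the vertical white line and TA right of it). TA columns are brighter for Hoxa9, Hoxb4 and Hoxd8, and the EOM 1 column is brighter than the other EOM columns for many rows, with Hoxa5 at 508.6.

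By paralogue number, genes that passed lay between 2 and 11, and no test compared these groups. Against 4.26% of all genes lower with all arrays and 6.64% without EOM 1, the counts for paralogues 1 to 3 were 0 and 3 of 7 genes (medians -0.49 and -0.92). For paralogues 4 to 8 they were 4 and 7 of 12 (medians -1.08 and -1.14), and for paralogues 9 to 11 they were 1 and 6 of 9 (medians -1.16 and -1.45). For paralogues 12 and 13 they were 0 and 0 of 5 (medians 0.20 and 0.12). Without EOM 1, TA 3 and TA 5 the counts, in the same order, were 3, 7, 5 and 0, against 7.44% of all genes. Every one of the 12 genes at paralogues 4 to 8 had a negative estimate with all arrays. At paralogue 4, Hoxb4 and Hoxc4 passed and Hoxa4 did not (-0.34, adjusted p = 0.829). At paralogue 9, Hoxa9 passed with all arrays, Hoxc9 and Hoxd9 without EOM 1, and Hoxb9 in neither. At paralogue 10, measured in clusters a, c and d, the estimates were -1.27, -1.24 and -1.16, and 2 of 3 passed without EOM 1.

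A split into paralogues 2 to 11 and the ends of the range (1, 12 and 13) was chosen after these values were seen and has no test. Of 26 genes at paralogues 2 to 11, 16 were lower without EOM 1, with a median of -1.29, against 6.64% of all genes lower. Of 7 genes at the ends, 0 were, with a median of 0.12. A count of 0 in so few genes is near that share of all genes. The end genes had low signals, with group means of at most 29.1 in EOM and 44.3 in TA. Low signal was not particular to them: Hoxc4, which passed, had means of 4.48 in EOM and 32.6 in TA. By cluster, the medians with all arrays were -1.0 for a, -1.13 for b, -1.14 for c and -0.13 for d. The counts lower without EOM 1 were 5 of 9, 4 of 9, 5 of 7 and 2 of 8, against the same 6.64% of all genes. Without EOM 1, TA 3 and TA 5 they were 5, 4, 4 and 2, against 7.44%. In that set 15 of the 26 genes at paralogues 2 to 11 were lower, and 0 of the 7 at the ends.

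Probe sets of a single gene did not always move together. Of 48 Hox probe sets, 6 were lower in EOM with all arrays and 0 higher, against 2.60% and 1.60% of all probe sets. Without EOM 1 the counts were 20 and 0, against 4.31% and 4.10%, and without EOM 1, TA 3 and TA 5 they were 18 and 0, against 4.99% and 4.48%. Among 11 genes with several probe sets, estimates differed in sign in Hoxa3 and Hoxa9 and by more than 1 in Hoxb4. The second Hoxa9 probe set read 9.2 to 43.4 in EOM and 12 to 91.6 in TA, with a log2 fold change of 0.08 ± 0.42. The second Hoxb4 probe set read 1.7 to 32.6 in EOM and 18.6 to 94.1 in TA and gave -0.77 ± 0.39 (adjusted p = 0.401). Hoxa3 had 4 probe sets, at -1.40, -0.96, -0.49 and 0.14, and the first of these passed without EOM 1 (-1.71, adjusted p = 0.00529) although the gene was represented by another. Which transcripts these probe sets detect was not tested.

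**Figure D4:**
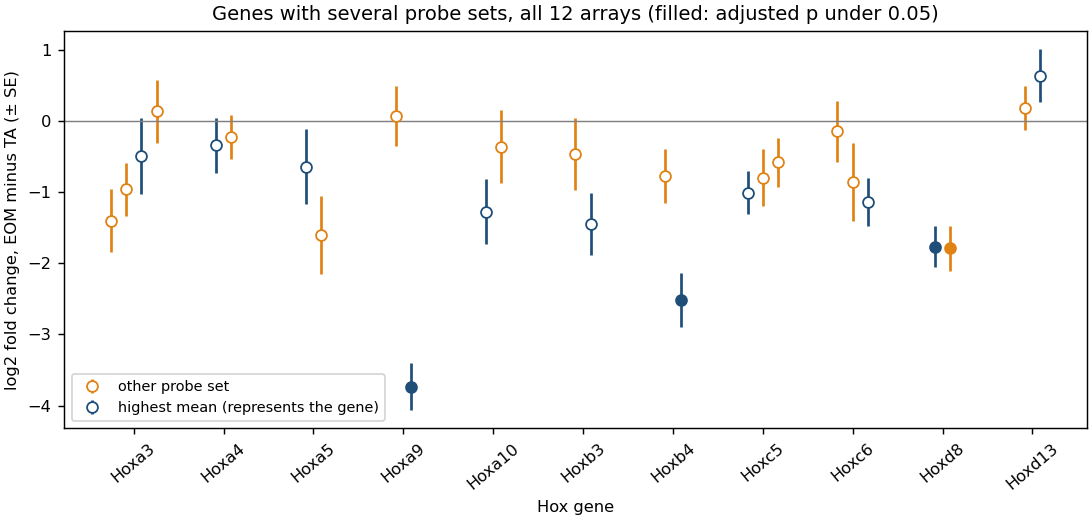
Log2 fold change (EOM minus TA, ± SE, all 12 arrays) of each probe set of the 11 Hox genes with several, blue for the probe set that represents the gene and orange for the others, filled where the adjusted p was under 0.05. Both Hoxd8 probe sets passed, at -1.76 and -1.79, while the second Hoxa9 probe set was at 0.08 beside -3.73.

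The number of Hox genes above the array's own median signal was 3 to 8 of 33 on the EOM arrays, with 8 on EOM 1. It was 13 to 19 on the TA arrays, so that the groups did not overlap. The share of all named genes above that median was not counted. The median itself differed between arrays (87.2 on EOM 1, 69.5 on TA 3, 63.1 on TA 5), and the count depends on it. The summed signal of the 33 genes was 476.6 to 684.5 on 5 EOM arrays, 2281 on EOM 1 and 1563 to 2696 on the TA arrays. EOM 1 was thus within the TA range by summed signal and below it by count.

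Lists of genes that work with or upstream of Hox genes were read against the 4.26% of all genes lower and 2.39% higher with all arrays. Of 8 TALE cofactors, the homeodomain partners that bind DNA with Hox proteins, 1 was lower and 0 were higher, with a median log2 fold change of -0.38 against -0.03 for all genes. It was Pbx3, at 132.0, 193.85 and 430.1 in EOM and 257.9, 464.85 and 630.4 in TA (-1.05 ± 0.29, adjusted p = 0.0439). It passed in 2 of the 12 fits without 1 array, those without EOM 1 or TA 0, and the adjusted p reached 0.133 in the others. Among 6 Cdx and ParaHox genes and 8 genes of the trithorax and MLL complex, which keeps Hox genes active, none passed, with a median of -0.23 for the latter. None of 7 other factors known to act on Hox genes passed (median -0.08). Without EOM 1, where 6.64% of all genes were lower and 6.27% higher, the TALE cofactors had 1 lower and 1 higher. The higher one was Pknox2 (0.97, adjusted p = 0.0279). Of the 7 other factors 1 was then higher, Egr2 (0.87, adjusted p = 0.0205), and 0 were lower.

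Of 17 genes of the Polycomb system, which silences Hox clusters, 0 were lower and 1 was higher (median -0.19). This was Kdm6b, a demethylase that removes the Polycomb mark, at 2903, 6746 and 10758 in EOM and 761, 2321 and 4132 in TA (1.72 ± 0.42, adjusted p = 0.0194). It missed the threshold without EOM 2, 3 or 6 or TA 3 or 5 (adjusted p up to 0.0685). Without EOM 1 the counts of this list were 2 lower and 2 higher, against 6.64% and 6.27% of all genes.

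Retinoic acid activates anterior Hox genes in the embryo, and Gdf11 posterior ones. In a list of 13 genes of both inputs, 3 were higher in EOM and 0 were lower, against 2.39% and 4.26% of all genes (median -0.24). Without EOM 1, 4 were higher and 0 lower, against 6.27% and 6.64% of all genes. Aldh1a3, which makes retinoic acid, read 185.4, 476 and 576.9 in EOM and 44.9, 68.35 and 137.8 in TA, with no overlap (2.23 ± 0.31, adjusted p = 9.54e-05), and passed in all alternatives. Aldh1a2, an enzyme of the same step, was at 1.49 ± 0.36 (adjusted p = 0.0174) and missed without EOM 0, 2 or 3 or TA 1 (adjusted p up to 0.0577). The receptor Rarb was at 1.23 ± 0.32 (adjusted p = 0.0265) and missed without EOM 2 or 6 or TA 0, 1 or 6 (adjusted p up to 0.0916).

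Markers of several cell types also differed between the muscles, some lower and some higher in EOM, and their part in the Hox result was not tested. Counts are with all arrays, where 4.26% of all genes were lower in EOM and 2.39% higher. Of 16 endothelial markers 14 were lower in EOM and 0 higher (median -3.36), with a summed signal of 2399 to 4239 in EOM and 23046 to 48158 in TA. For pericytes and smooth muscle 7 of 10 were lower (6038 to 10416 against 19676 to 33223). For leukocytes and macrophages 8 of 12 were lower (506.4 to 4719 against 4778 to 13909). Of 11 fibroblast markers 4 were higher and 0 lower (132010 to 215870 against 72610 to 126510). The largest changes in these lists were those of the endothelial genes Aplnr (-5.33) and Aqp1 (-5.07), the mural genes Myh11 (-4.03) and Rgs5 (-3.96), the leukocyte genes Ctss (-3.47) and Tyrobp (-2.90), and the fibroblast genes Pi16 (5.55) and Dpep1 (2.07). In each of these lists 0 genes passed the threshold in the other direction. Some estimates had the other sign without passing, among them the mural gene Abcc9 (0.94, adjusted p = 0.409) and the fibroblast gene Col1a1 (-0.84, adjusted p = 0.464). Of 3 genes of dye efflux, the property that defines side population cells, 2 were lower in EOM and 0 higher: Abcg2 (-2.23, adjusted p = 0.00157), at 100.3 to 1014 in EOM and 1705 to 3461 in TA, and Abcb1b (-1.38, adjusted p = 0.00544). Satellite cell markers gave 1 of 9 lower, Pax7, whose signals were 2.2 to 11 in EOM and 19.8 to 108.2 in TA. Myofibre markers gave 1 of 8 lower (Acta1, adjusted p = 0.0465, lost without EOM 0, 2, 3, 5 or 6 or TA 0, 2, 5 or 6) and glial markers 0 of 3. In lists this short, the satellite cell, myofibre and glial counts are close to the share of all genes. Of the hindlimb genes, Tbx4 was lower in EOM, at 2.6 to 17.9 against 37.4 to 60.1 (-1.26, adjusted p = 0.0260), and Pitx1 did not pass (0.02). Pax7 and Tbx4 each missed the threshold in 7 of the 12 fits without 1 array, those without EOM 0, 2, 3, 5 or 6 or TA 2 for both, TA 5 for Pax7 and TA 1 for Tbx4 (adjusted p up to 0.0729 and 0.0998). Both had low signals, which a filter on the lowest 40% of means would leave out.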

How the data were processed

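Total RNA of each preparation was amplified in 2 cycles, labelled with biotin and hybridized to an Affymetrix Mouse 430 2.0 array, per the labels' protocols. The deposited values are MAS5 signal intensities on a linear scale, which the authors computed with the MAS5 algorithm, per the labels; after trimming 2% at both ends every array had a mean of 150, so each had been scaled as a whole. Each signal therefore depends on the brightness of its whole array. Present calls, scan dates and the genome build are not given in the sources used here.

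Of 45101 probe sets, 64 controls were left out; 34945 of the rest had 1 gene symbol, 932 several and 9160 none. Symbols came from the platform table, and all 48 Hox symbols matched RefSeq. Signals were analysed as log2(signal + 16), so fold changes of low signals are understated, with limma 3.58.1 in R 4.3.3 (EOM minus TA, intensity trend, two-sided, threshold 0.05). No level filter was used: 21 of 48 Hox probe sets were above a filter on the lowest 40% of means. For a gene with several probe sets, the one brightest on average across the 12 arrays stood for the gene.

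Genes given array by array were those past the threshold with all arrays or without EOM 1. Others are named by cluster. Genes of partner and marker lists are named when past the threshold with all arrays (at most 3 and 2 per list). Pitx1, Abcc9, Col1a1, Pknox2 and Egr2 were added. Members, lists, tests and alternatives were chosen with earlier results of these data known. The labels call the preparations independently separated and do not say which animals they came from, so p-values measure the spread between preparations only. The alternatives changed the added constant, level filter, scaling, variance model, pairing, RNA quality covariate, gene summary or arrays used.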

Additional observations from a re-analysis of the deposited data

Results flagged for a closer look

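Among 68 combinations of a Hox gene (or the array median) and a group of 6 arrays, 10 had 1 array far from the other 5 (Dixon's test at the 95% level, which chance gives in about 1 of 20). Of these, 7 were Hox genes for which the array was EOM 1, above the other EOM arrays: Hoxa2 (48.1), Hoxa7 (16.9), Hoxa10 (86.7), Hoxb2 (96.8), Hoxb5 (23.6), Hoxb13 (99.1) and Hoxc4 (14.6). The median signal of all probe sets on EOM 1 (87.2), also among the 10, stood apart in the same way. In TA, Hoxc13 stood out on TA 3 (40.1) and Hoxd12 on TA 5 (14.1).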

How the results depend on the processing

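The count of Hox genes higher in EOM was 0 in all 25 alternatives, and Hoxa9, Hoxb4 and Hoxd8 were lower in each. The count lower, 5 of genes and 6 of probe sets, depended on the arrays. Array weights gave 18 and 22, leaving out EOM 1, TA 3 and TA 5 gave 15 and 18, and quantile normalization gave 8 and 10. The replicate number as a fixed block gave 3 genes, losing Hoxb5 and Hoxc4, and as a random block 5 (correlation -0.0771). The labels do not say whether same-numbered preparations were paired. Deviations of same-numbered arrays from their group means correlated at -0.317 to 0.157, and 1 of 12 arrays correlated best with its own number. Arrays also differed in median signal and RNA quality, so weak correlations cannot decide whether the samples were paired. Leaving out 1 array gave 3 to 16 genes and 4 to 20 probe sets, the highest without EOM 1. All genes called, 1209, went to 2986 with array weights, 2596 without EOM 1, TA 3 and TA 5, 794 with median centring and 875 to 2348 with 1 array left out. Filters on the lowest 40% and 60% of means left out Hoxb5 and Hoxc4, so 3 of the 5 genes were tested there and remained lower; Hoxc6 was added by both and Hoxb3 and Hoxd9 by the first. The filters are on the mean of both groups, which a gene high in 1 group passes, and their counts support nothing. Small estimates changed sign in 4 genes: Hoxa4 (0.15 without EOM 1, TA 3 and TA 5), and, with 1 array left out, Hoxa13 (-0.04 without TA 2 to 0.32), Hoxb9 (-0.26 without EOM 1, -0.01 without TA 2, to 0.49) and Hoxd1 (-0.02 without EOM 0 to 0.33). The cause was not tested. Low signals limit what the 19 genes under the 40% filter can show.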
